A study of Mus musculus with 3 samples.

Results

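The genes described here encode the proteins of the cytosolic ribosome. They were taken from the GENCODE M21 annotation of mouse by symbol: Rpl or Rps followed by a number with an optional letter a, x or l, together with Rplp0, Rplp1, Rplp2 and Rpsa, and without the ribosomal S6 kinase genes. The symbols gave 80 of the 21851 protein-coding genes that have a protein-coding transcription start site (TSS). Of these, 49 belong to the large and 31 to the small subunit, and they are scattered over 18 autosomes and the X chromosome, with 14 of them on chromosome 7. Symbols of another form are outside the count: Rps3a1, the mouse gene for the small subunit protein S3a, is given separately below.

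Chromatin accessibility was mapped by DNase-seq in primary monocytes, the blood phagocytes that give rise to macrophages, of virgin female B6CASTF1/J mice aged 2 months. This strain is a first-generation cross between C57BL/6J and CAST/EiJ mice. The 3 libraries, labelled biological replicates 1, 2 and 4, form a single group and carry the same donor identifier. No separate animals are named, so SDs over the 3 libraries may measure technical spread alone.

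DNase I cuts DNA where chromatin is open, and a peak of cuts marks an accessible element. A footprint is a short stretch inside open DNA with fewer cuts, where a bound protein may have shielded the DNA. With 1 group there is no contrast between conditions to test, so the values below are descriptions, set beside the same values over all protein-coding genes.

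The ribosome joins amino acids into protein. Its small subunit reads the message and its large subunit forms the peptide bond. Their genes are transcribed in nearly all cells from CpG-rich promoters without a classical TATA box. Their messages begin with a run of pyrimidines, the terminal oligopyrimidine (TOP) tract, through which their translation is controlled by growth signals, and many of their introns hold small nucleolar RNAs (snoRNAs) that guide the modification of ribosomal RNA.

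The libraries held 54046, 42657 and 48980 peaks and 144028, 107955 and 119597 footprints for replicates 1, 2 and 4. Read depth is unknown. Promoters of 7 of 10 monocyte marker genes were open in every library, among them Csf1r, Cx3cr1, Itgam, Lyz2 and Spi1, while Fcgr4 was open in 2 libraries, Ly6c2 in 1 and Ccr2 in none. Of 5 markers each of T cells, B cells, erythroid cells and neutrophils, none was open in every library. Cd28 was open in 2 libraries, with heights of 0.519 and 0.557, and Camp in 1, with 0.322, beside a median of 1.28, 0.975 and 1.31 in replicates 1, 2 and 4 over the 7 open monocyte markers, themselves below the 3.90, 3.24 and 4.94 of all open genes.

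Nearly all of the ribosomal protein genes were open. A peak within 1 kb of a protein-coding TSS was found in every library for 77 of the 80 genes (96.2%), beside 50.5% of all protein-coding genes. All 31 small subunit genes were among them. The other 3 genes, Rpl3l, Rpl10l and Rpl39l, had no promoter peak in any library, which held for 44.1% of all protein-coding genes. These 3 are paralogs of Rpl3, Rpl10 and Rpl39 known for expression in muscle (Rpl3l) and testis (Rpl10l and Rpl39l). At none of them did the deposited false discovery rate (FDR) track list an interval under its limit of 0.05 within 1 kb of a start site, in any library. Their parents were open: Rpl3 stood at a height of 9.06, 7.55 and 11.4 in replicates 1, 2 and 4, Rpl10 at 4.61, 4.15 and 6.11, and Rpl39 at 3.30, 2.73 and 5.04. Rps27l, the remaining gene whose symbol ends in l, was open at 5.60, 4.70 and 7.74. It was the exception among the 4 genes with that ending, while all 76 others were open.

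Genes of the ribosome that the symbols leave out were open as well, with a single exception. Fau, which encodes a small subunit protein fused to a ubiquitin-like protein, had heights of 10.2, 9.20 and 14.2. Rack1, a scaffold protein of the small subunit, was lower at 3.92, 3.21 and 3.94, near the median open promoter. Among the paralogs, Rpl22l1 had 9.50, 8.47 and 12.1, and the mean height was 7.59 for Rpl36al and 5.28 for Rpl7l1. Rps27rt, a retrogene of Rps27, had no promoter peak in any library. Rps3a1, added after the values had been seen, had 12.4, 9.41 and 14.2, which would place it among the 5 tallest.

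The processed pseudogenes of these genes, intronless copies of their messages elsewhere in the genome, were nearly all closed. The annotation names 291 of them after 59 of the ribosomal protein genes. Only 3 (1.03%) had a peak within 1 kb of their start in every library, and 284 had none in any library. The share over other processed pseudogenes was not computed, so these counts do not set the copies of ribosomal protein genes apart. Of the 3, Rpl29-ps2 lies within 2 kb of a protein-coding TSS and had heights of 0.915, 0.763 and 1.03. Rpl38-ps1 had 1.86, 1.59 and 2.25, level with the lowest open ribosomal protein genes. Rpl5-ps2 had 0.701, 0.700 and 0.965, below all of them. Reads that fit several near-identical copies can be lost in mapping, and how they were treated is not given in the sources used here.

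The open ribosomal protein genes carried tall promoter peaks. The median height of their tallest promoter peak was 6.003, 4.95 and 8.08 in replicates 1, 2 and 4, against 3.90, 3.24 and 4.94 over all open genes. Heights were larger throughout in replicate 4, and their scale is not stated, so levels are also given as the percentile among all peaks of the same library. The median percentile was 93.3 ± 0.968 (SD, n = 3 libraries) for the ribosomal protein genes and 87.0 ± 1.58 for all open genes. A peak among the tallest 10% in every library was found for 50 of the 80 genes (62.5%), beside 18.1% of all protein-coding genes. Of the 77 open genes, 64 stood above the median open promoter in every library and 8 below it in every library.

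**Figure D1:**
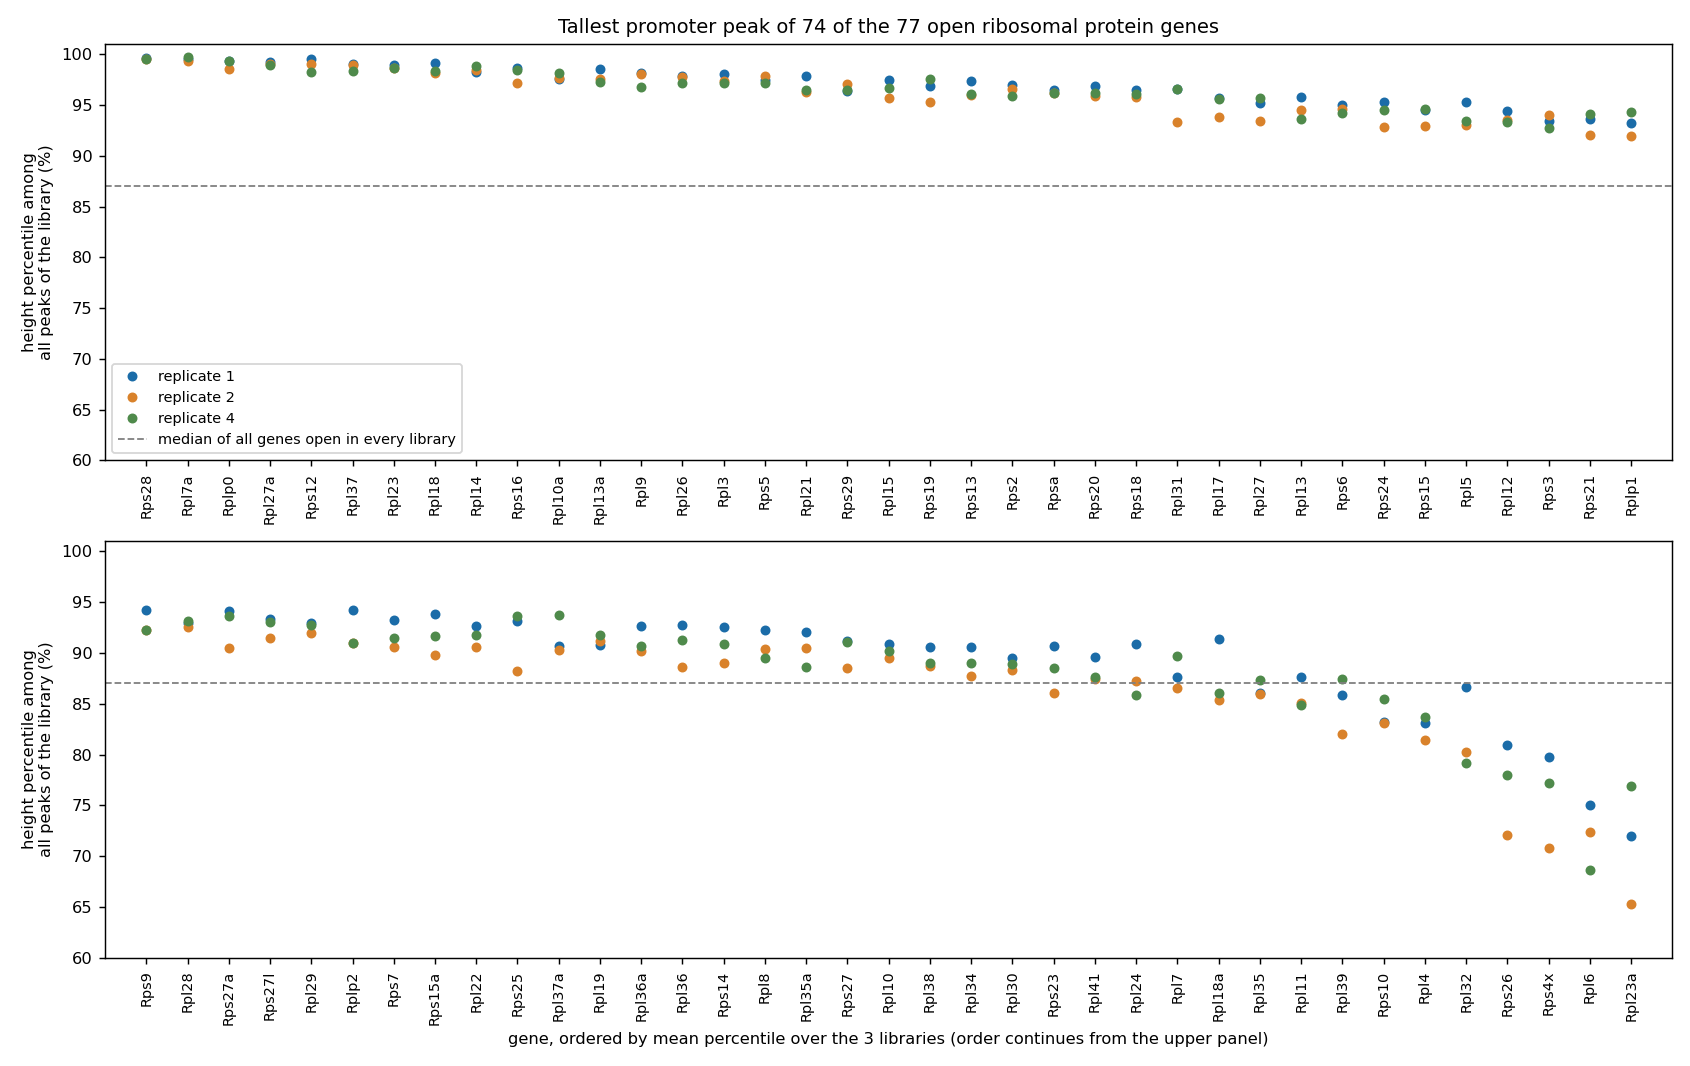
Height percentile (y axis, in percent of all peaks of the same library) of the tallest promoter peak of 74 of the 77 open ribosomal protein genes (x axis), ordered by the mean over libraries; points are replicates 1, 2 and 4, and the dashed line is the median of all genes open in every library, 87.0. Most genes lie above the line, and the last genes, from Rps10 on, lie below it in each library and spread more widely. Percentiles near the top of the scale leave less room for spread.

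The 10 tallest promoters came from both subunits, 7 from the large and 3 from the small. Rps28, whose product lies near the exit of the message from the small subunit, had heights of 12.7, 10.8 and 17.0 in replicates 1, 2 and 4. Rpl7a, a core protein of the large subunit, had 12.1, 9.98 and 18.3. Their percentiles among all peaks were 99.3 to 99.7 over the 3 libraries, and Rps28 was the tallest of the group in replicates 1 and 2 while Rpl7a was the tallest in replicate 4.

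Rplp0, which anchors the stalk that recruits translation factors to the large subunit, had heights of 11.6, 8.65 and 15.9. Among the next were Rpl27a, Rps12, Rpl37, Rpl23, Rpl18 and Rpl14, with mean heights from 11.7 down to 10.7. The tallest peak of Rpl18 lay 2563.5 to 2583.5 bp downstream of its main TSS, at another annotated start. Along the order of mean percentiles, 1 of 76 neighbouring pairs of genes had ranges over the libraries that did not overlap. The order of most neighbours is thus not resolved by 3 libraries.

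The 8 lowest open promoters, 4 from each subunit, included those of Rpl6, Rpl23a, Rps4x, Rps26, Rpl32, Rpl4 and Rps10. Rpl6 had heights of 1.91, 1.80 and 1.96. Rpl23a, which lies at the exit of the peptide tunnel and is a docking site of the signal recognition particle, had 1.71, 1.43 and 2.75. Both were well under the median open promoter in every library, and the tallest of the 77 open genes exceeded the lowest 7.43-fold, 7.57-fold and 9.34-fold in replicates 1, 2 and 4.

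Rps4x had 2.34, 1.70 and 2.79, and Rps26, a protein at the message exit channel, had 2.48, 1.78 and 2.90. Rpl4, whose product lines the peptide tunnel, had 2.79, 2.64 and 3.96. Its tallest peak was centred at -394.5, -454.5 and -454.5 bp from its start, beyond the start of the divergent gene Zwilch, which lies 271 bp upstream, so the peak cannot be assigned to Rpl4 alone. The percentile varied most between libraries for Rpl23a (SD 5.80), Rps4x (4.61) and Rps26 (4.46). For these 3 replicate 2 was the lowest library, as it was for the median of all open genes (85.4, against 88.5 and 87.1 in replicates 1 and 4). Percentiles near 100 leave little room for spread. Rps28 had a percentile SD of 0.0525, yet its heights had an SD of 3.19 around a mean of 13.5, beside 0.544 around 2.28 for Rps4x. Over the open ribosomal protein genes the median SD of the percentile was 1.03, against 1.88 over all open genes, whose percentiles were lower. Heights of the 77 genes had a Spearman correlation of 0.962 to 0.971 between libraries, over genes that share library, mouse strain and peak caller.

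By position in the ribosome, levels differed little. The median percentile was 92.5 ± 0.783 for the large subunit and 93.9 ± 0.802 for the small subunit. The 3 stalk genes, Rplp0, Rplp1 and Rplp2, had a median of 93.5 ± 1.34. Rps6, the substrate of the S6 kinases, lay at 94.6 ± 0.383. Rps19, the gene most often mutated in Diamond-Blackfan anaemia, lay at 96.6 ± 1.18. Rpl5 and Rpl11, which bind MDM2 together with the 5S RNA and so act on p53, lay at 93.9 ± 1.19 and 85.9 ± 1.56. These 4 genes spanned more than the gap between the medians of the ribosomal protein genes and of all open genes.

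The X-linked genes were lower than the others by their median, with Rpl10 and Rpl36a still above the median of all open genes. Rpl36a had heights of 5.34, 4.34 and 6.34, Rpl10, a late-joining protein of the large subunit, had 4.61, 4.15 and 6.11, and Rpl39, a small protein in the peptide tunnel, had 3.30, 2.73 and 5.04. With Rps4x, their mean percentiles were 91.2, 90.2, 85.1 and 75.9. Their median was 87.6 ± 1.65, beside 93.6 ± 0.707 for the autosomal ribosomal protein genes. All open X-linked genes had a median of 76.0 ± 2.52 and all open autosomal genes 87.3 ± 1.57, so both sets were lower on the X chromosome. All 4 X-linked ribosomal protein genes were open in every library, beside 32% of the 948 X-linked protein-coding genes.

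Lists of genes with related tasks placed the ribosomal proteins in the upper range. The list called translation factors here has 40 genes. It also holds Tpt1, Npm1, Nap1l1 and Hnrnpa1, which are not translation factors in the strict sense. All 40 were open, with a higher median percentile of 96.0 ± 0.508. The 40 genes of ribosome biogenesis and its control, all open, had 89.6 ± 1.27, and the 39 proteasome genes, of which Psma8 and Psmb11 were closed, had 90.3 ± 1.06. The 78 mitochondrial ribosomal protein genes, all open, had 84.7 ± 1.503, below the median of all open genes. The proteins of the cytosolic and of the mitochondrial ribosome thus lay on opposite sides of that median in each of the 3 libraries.

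**Figure D2:**
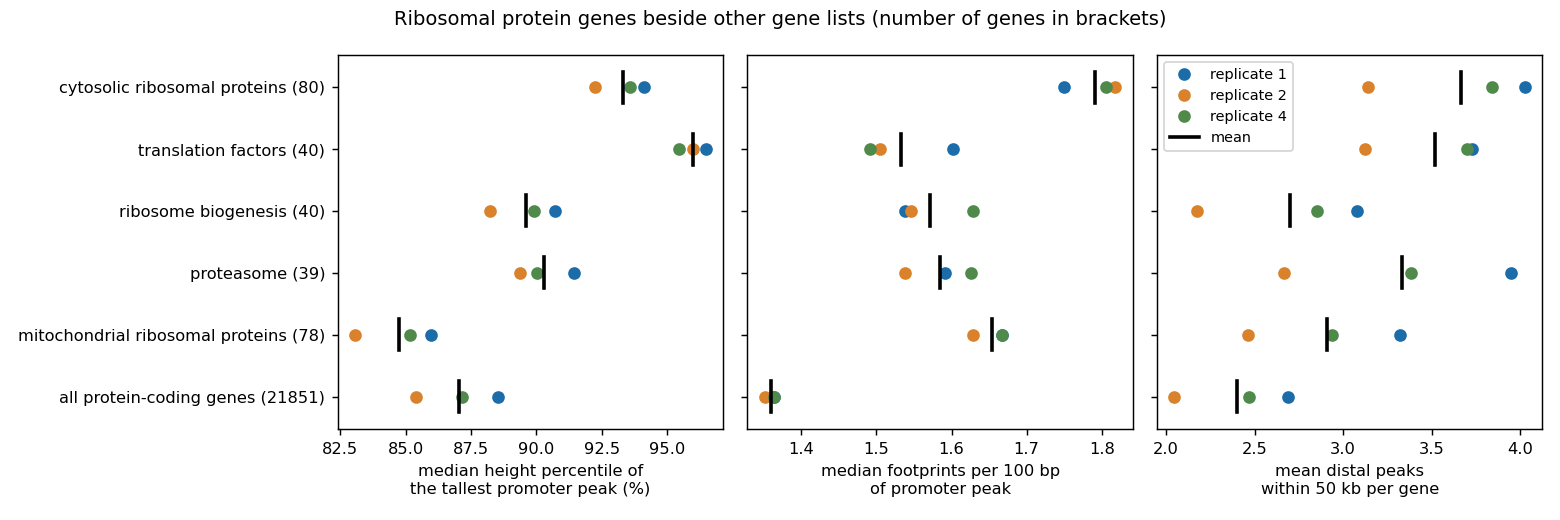
Gene lists (y axis, number of genes in brackets) by median height percentile of the tallest promoter peak in percent, by median footprints per 100 bp of promoter peak and by mean number of distal peaks within 50 kb per gene (x axes); points are the 3 libraries and bars their mean. The first 2 panels take genes open in every library. The ribosomal proteins have the most footprints per 100 bp, with a mean of 1.79, while translation factors have the taller peaks.

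The promoter peaks of a ribosomal protein gene were short in sum and close to its start. Promoter peaks covered a median of 260 bp per gene, against 319 bp over all open genes. The tallest peak alone was of about the same width, with a median of 227 bp against 230 bp. The open genes had a mean of 1.35 promoter peaks, against 1.68 over all open genes. In sum over their promoter peaks, the mitochondrial ribosomal protein genes had 227 bp, the proteasome genes 267 bp, the biogenesis genes 271 bp and the translation factors 478 bp. A short sum was thus shared with all of these lists but the last. A single promoter peak in every library was found for 42 of the 77 open genes (54.5%), beside 38.8% of all open genes. The tallest peak covered the main TSS in every library for 55 (71.4%), beside 57%. Its centre lay within 100 bp of the main TSS in every library for 50 (64.9%), beside 49.7%, and the median distance was 45.5 bp against 81.8 bp. The distance depends on which annotated start is taken: for 60 of the genes RefSeq promoter records were at hand, and their start differed from the GENCODE start by a median of 24 bp and by over 100 bp for 12 genes.

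The promoter peaks were rich in footprints. Each of the 77 open genes had at least 1 footprint in every library, beside 95.2% of all open genes. The median was 5.33 ± 0.577 footprints per promoter against 4.33 ± 0.577. Per 100 bp of peak the medians were 1.75, 1.82 and 1.81 in replicates 1, 2 and 4 against 1.36, 1.35 and 1.36. As means over libraries, mitochondrial ribosomal protein genes had 1.65, proteasome genes 1.59, biogenesis genes 1.57 and translation factors 1.53. A density above that of all open genes was thus shared with these lists. The large subunit genes had 1.65, level with the mitochondrial ribosomal protein genes, and the small subunit genes 1.97. The genes with the most footprints had several promoter peaks (Rpl18, Rpl10 and Rpl7) or a tallest peak of 300 to 420 bp (Rps18, Rplp2 and Rps23). Rpl18 had 10, 13 and 12 footprints, Rps18 had 14, 8 and 12, and Rpl10 had 18, 7 and 8. Rpl7 had 9, 13 and 11, Rplp2 10, 9 and 12, and Rps23 9, 10 and 11. The tallest genes were not the richest. Rps28 had 5, 4 and 4 footprints, Rpl7a had 2 in each library, and over the 77 genes the Spearman correlation of mean percentile with mean footprint count was -0.019.

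Footprints recurred between libraries more often at these genes. Of the 460, 397 and 415 footprints in their promoter peaks, 58.0%, 65.0% and 60.7% overlapped footprints in both other libraries, against 45.9%, 54.0% and 51.8% at all open genes. Footprint cover exceeded that of all open genes before, around and behind the start. From 100 to 21 bp before the main TSS, 28.0 ± 1.49% of positions were under a footprint, against 21.5 ± 1.58% at all open genes. Peaks covered 76.6 ± 0.631% and 71.1 ± 0.930% of positions there. From 20 bp before to 19 bp after the main TSS, 32.2 ± 0.707% of positions were under a footprint, against 21.6 ± 1.51% at all open genes. In this zone 80.7 ± 1.36% and 70.8 ± 1.12% of positions lay under a peak. From 20 to 119 bp downstream the shares were 20.2 ± 1.90% and 10.2 ± 1.16%, and here 62.9 ± 2.12% of positions at the ribosomal protein genes and 48.4 ± 2.55% at all open genes lay under a peak. The wider reach of the peaks moved with the footprints in each of these zones, and its part in the result was not tested.

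**Figure D3:**
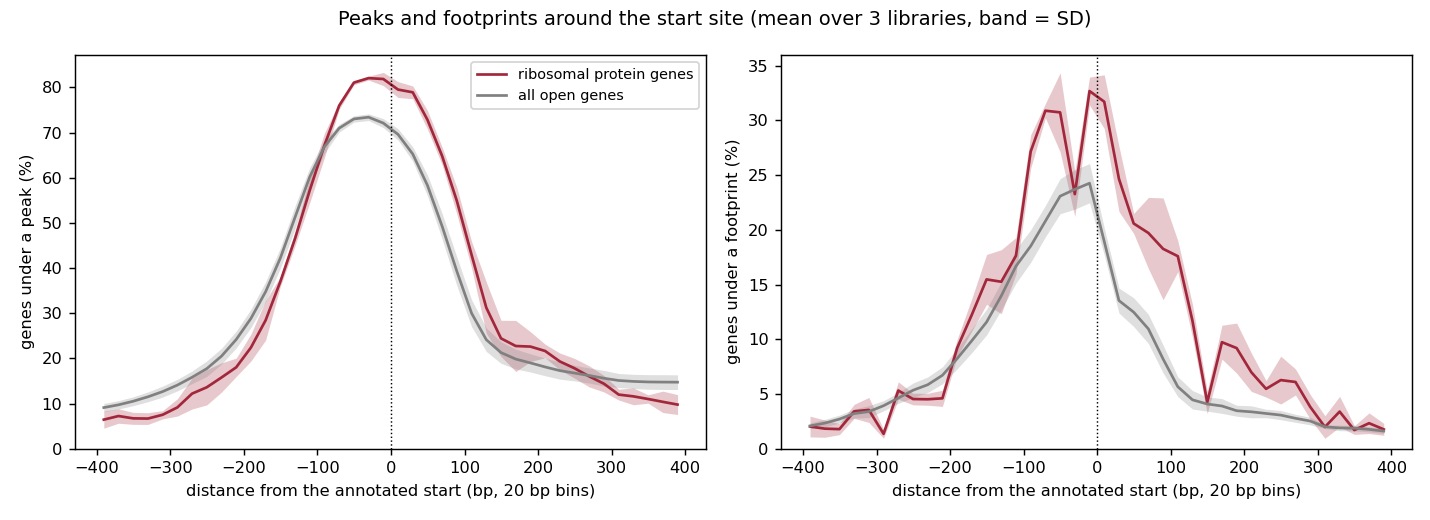
Share of genes (y axes, in percent) under a peak (left) and under a footprint (right) by distance from the main TSS (x axes, 20 bp bins, downstream to the right), as the mean over 3 libraries with the SD as band, for the 77 open ribosomal protein genes and all 11029 open genes. Footprint cover at the ribosomal protein genes is higher from 100 to 21 bp upstream, 28.0% against 21.5%, and at the start, 32.2% against 21.6%. It is also higher from 20 to 119 bp downstream, 20.2% against 10.2%. Peak cover is higher in the same zones.

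The promoter sequences below show where these footprints fell at 5 genes, the tallest pair and, among the 20 tallest whose tallest peak covers the main TSS, the 3 with the most motif matches under footprints of every library. Each runs 5′ to 3′ in the direction of transcription, from 120 bases before the main TSS through the first 30 transcribed bases, in the C57BL/6J reference (GRCm38.p6, mm10), so alleles of CAST/EiJ are not shown. Capitals mark bases that lay under a footprint in all 3 libraries. The windows are chr17:33824533-33824682 (minus strand) for Rps28, chr2:26910644-26910793 (plus) for Rpl7a, chr7:109519027-109519176 (plus) for Rpl27a, chr11:97782408-97782557 (minus) for Rpl23 and chr7:45128732-45128881 (minus) for Rpl13a.
Rps28: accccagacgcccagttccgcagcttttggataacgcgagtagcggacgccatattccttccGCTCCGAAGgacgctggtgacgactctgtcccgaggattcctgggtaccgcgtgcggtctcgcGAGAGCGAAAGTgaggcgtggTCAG
Rpl7a: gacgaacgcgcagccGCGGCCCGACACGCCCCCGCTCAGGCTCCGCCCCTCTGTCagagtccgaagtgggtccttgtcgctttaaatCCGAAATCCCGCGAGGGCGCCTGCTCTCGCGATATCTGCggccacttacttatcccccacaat
Rpl27a: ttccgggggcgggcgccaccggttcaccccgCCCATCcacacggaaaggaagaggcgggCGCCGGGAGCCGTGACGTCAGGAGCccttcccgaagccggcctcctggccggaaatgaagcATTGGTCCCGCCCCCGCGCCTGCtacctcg
Rpl23: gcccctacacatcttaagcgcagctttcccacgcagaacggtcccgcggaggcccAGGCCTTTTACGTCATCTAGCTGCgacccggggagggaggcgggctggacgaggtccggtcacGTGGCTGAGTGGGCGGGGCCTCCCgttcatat
Rpl13a: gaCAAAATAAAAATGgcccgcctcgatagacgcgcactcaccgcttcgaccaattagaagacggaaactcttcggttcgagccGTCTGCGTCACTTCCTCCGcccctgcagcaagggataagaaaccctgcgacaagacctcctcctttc
The shared footprints covered 25 of the 150 bases at Rps28, 79 at Rpl7a, 54 at Rpl27a, 48 at Rpl23 and 32 at Rpl13a. At Rpl27a and Rpl23 a footprint of all 3 libraries began within 2 bases of the start and held a GC box. At Rpl7a 1 long footprint stretch lay near the upstream edge of the window and another ran up to and across the start.

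Fixed letter patterns were then searched in the 300 bases from 250 before to 50 after the main TSS, on both strands. A match is a run of letters and not evidence that a factor was bound. The element CTCGCGAG, recognised by the factors BANP and ZBTB33, was more frequent at these genes. It was found at 9 of the 77 open genes (11.7%), beside 2.02% of all open genes and 1.20% of all protein-coding genes. In 7 of the 9 (9.09% of the open ribosomal protein genes, beside 1.06% of all open genes) a T precedes and an A follows it. Within footprints of every library, each extended by 5 bp, it was found at 6 genes (7.79%), among them Rpl10a, Rpl17, Rpl26, Rps28 and Rps6, beside 0.97% of all open genes. A small number of genes carries this difference.

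The sites below are shown because most of the genes around them were tall. Each is 30 bases of the same reference, 5′ to 3′ in the direction of transcription, with the element in capitals, and its first base is counted from the main TSS as 0. The windows are chr17:33824544-33824573 (minus strand, element at 0) for Rps28, chr7:109519162-109519191 (plus, 26) for Rpl27a, chr17:28328524-28328553 (plus, -33) for Rpl10a, chr11:68901530-68901559 (plus, -42) for Rpl26, chr4:86857399-86857428 (minus, -5) for Rps6 and chr9:64173122-64173151 (plus, -242) for Rpl4.
Rps28: ccgcgtgcggtCTCGCGAGagcgaaagtga
Rpl27a: gcgcctgctacCTCGCGAGacttcgtgagc
Rpl10a: aacgggcaactCTCGCGAGaacgcgggctc
Rpl26: gctccgagactCTCGCGAGatctcgcggca
Rps6: cgccggctgttCTCGCGAGaacttagagcg
Rpl4: gaaagataattCTCGCGAGagttgtgacga
At Rps28 the shared footprint covered part of the element and the extension by 5 bp the rest. The site of Rpl17 is not shown. The 9 genes with the element had a median percentile of 97.9 ± 0.218, the 68 open genes without it 92.7 ± 0.899, and all 223 open genes with it 93.3 ± 0.723. Mean percentiles were 99.6 for Rps28, 99.1 for Rpl27a, 97.8 for Rpl10a, 97.6 for Rpl26, 95.0 for Rpl17, 94.6 for Rps6 and 82.7 for Rpl4. Rpl4 was the single low gene among them, and its element is the farthest from the start. That element lies near the start of the divergent gene Zwilch, 271 bp upstream, and the tallest peak cannot be assigned to Rpl4 alone. Whether the distance of the element goes with the height was not tested. At Rpl27a the element was not under footprints of every library although its promoter was among the tallest.

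**Figure D4:**
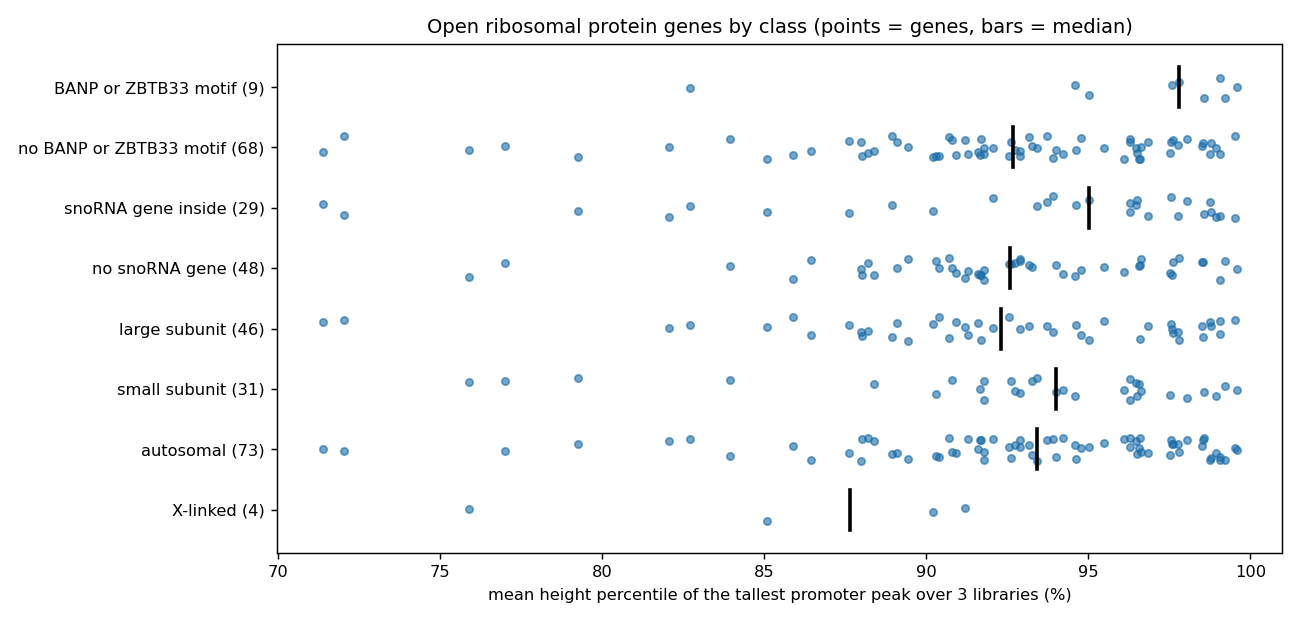
Mean height percentile over 3 libraries (x axis, in percent) of the tallest promoter peak of each of the 77 open ribosomal protein genes, by class (y axis, number of genes in brackets); points are genes, spread vertically for view, and bars are the median of the points. Of the 9 genes with the BANP or ZBTB33 element 8 lie above 94. The 4 X-linked genes range from 75.9 (Rps4x) and 85.1 (Rpl39) to 90.2 (Rpl10) and 91.2 (Rpl36a).

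The core of ETS family sites, CCGGAAG, was present at 24 of the 77 open genes (31.2%), beside 19.4% of all open genes and 11.1% of all protein-coding genes. Under footprints of every library it was found at 7 genes (9.09%), beside 6.05%, so the share of matches that were under footprints was about the same, 29.2% at the ribosomal protein genes and 31.2% at all open genes. The 24 genes had a median percentile of 93.4 ± 1.17 and the 53 without it 93.4 ± 0.772. Rps21 has a pair of them, so 8 sites are shown to compare their flanks, with the core in capitals, in the same reference and direction. They lie at chr14:18271129-18271151 (minus) for Rpl15, chr17:33955726-33955748 (minus) for Rps18, chr4:86857444-86857466 (minus) for Rps6, chr2:180257283-180257305 and chr2:180257345-180257367 (plus) for Rps21, chr15:76904043-76904065 (plus) for Rpl8, chr4:136053373-136053395 (minus) for Rpl11 and chr5:121204505-121204527 (plus) for Rpl6.
Rpl15: gagagcatCCGGAAGcggcgggc
Rps18: agcaatttCCGGAAGtggacctc
Rps6: atctacgcCCGGAAGtaacgccc
Rps21, upstream: tctttgcaCCGGAAGcggaagtt
Rps21, near the start: accctgacCCGGAAGcacttacc
Rpl8: gccccgccCCGGAAGataaggct
Rpl11: ccacggggCCGGAAGtctccctc
Rpl6: cttatagaCCGGAAGccgctgcc
The first bases of these cores lay from 86 bases before (Rps21) to 32 bases after the start (Rpl6). Rpl6 and Rpl11 were among the lower genes and Rpl15 among the taller ones.

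The motif of ribosomal protein gene starts known as TCT gave the widest difference. It was searched as YYCTTTYY (Y is C or T) from 50 bases before to 100 after the main TSS, on the strand that reads like the message. This search was chosen after other values had been seen. It matched 35 of the 77 open genes (45.5%), beside 6.41% of all open genes and 7.81% of all protein-coding genes. The match lay at a median of 38 bases after the annotated main TSS, and such an element is known to span the start itself. In a window of 20 bases before to 50 after the TSS, also chosen after seeing the data, the shares were 23.4% and 2.70%. Under footprints of every library it was found at 4 genes (5.19%), beside 0.372%. These 4 matches are shown with the motif in capitals, at chr11:97782360-97782383 (minus) for Rpl23, chr8:123102405-123102428 (plus) for Rpl13, chr4:86857352-86857375 (minus) for Rps6 and chr9:106429399-106429422 (plus) for Rpl29.
Rpl23: ctttctgaCCCTTTCCgggcgttc
Rpl13: gtgcccggTCCTTTCCgctcggcc
Rps6: agtcgggcCTCTTTTTcgtgacgc
Rpl29: aacccctcCCCTTTCTaggcttca
Genes with the motif had a median percentile of 93.1 ± 0.536 and those without it 93.3 ± 1.10, so its presence did not go with the height of the peak. A pyrimidine start, in which the first base and at least 4 of the next 5 are C or T, was found at the main TSS of 11 genes (14.3%, beside 7.93% of all open genes) and within 10 bases of it at 57 (74.0%, beside 58.9%).

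Other common promoter elements were less frequent than at all open genes or about as frequent. The GC box GGGCGG of SP and KLF factors was present at 40 genes (51.9%), beside 65.1% of all open genes, and its relative CCCCGCC, which can overlap it, at 25 (32.5%), beside 44.3%. Under footprints of every library the GC box was found at 28 genes (36.4%), beside 34.1%: among its carriers, 70% of the ribosomal protein genes and 52.4% of all open genes. CCCCGCC was under such footprints at 13 genes (16.9%), beside 23.4%. The CCAAT box of NF-Y was at 25 genes (32.5%), beside 39.4%, and under footprints at 6 (7.79%), beside 6.61%, among them Rplp0, Rpl23 and Rpl27a. The E-box CACGTG was at 9 (11.7%), beside 10.4%, and under footprints at Rpl13a and Rpl23 (2.6%), beside 2.93%. The NRF1 element GCGCATGC was at 4 (5.19%), beside 5.69%, and under footprints at Rpl10a and Rpl37a (2.6%), beside 4.61%.

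The YY1 element AAGATGGC was at 5 genes (6.49%), beside 5.01%, and under footprints at Rpl18 and Rpl23a (2.6%), beside 0.598%. Its variant AAAATGGC was at Rpl13a and Rpl24 (2.6%), beside 2.01%, and under footprints at Rpl13a (1.3%), beside 0.426%. The HINFP element CGTCCGC was at 3 genes, Rpl34, Rps14 and Rps28 (3.9%), beside 5.42%, and under footprints at none, beside 0.743%. Counts of 3 or fewer genes say little about frequency.

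The letters TATAAA in the 40 bases before the start, on the strand that reads like the message, were at none of the 77 genes, beside 0.997% of all open genes, and 0.317% with footprints. Of the elements of myeloid factors, the PU.1 element GAGGAAG, which shares its GGAAG with the ETS core, was at 15 genes (19.5%), beside 13.2%, and under footprints of every library at 2, Rpl13a and Rpl37a (2.6%, beside 0.879%). The C/EBP element TTGCGCAA was at none, beside 0.308% of all open genes and 0.154% with footprints. The AP-1 element TGAGTCA was at 3 (3.9%), Rpl22, Rpl9 and Rps3, beside 3.13%, and under footprints at none, beside 0.0997%.

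**Figure D5:**
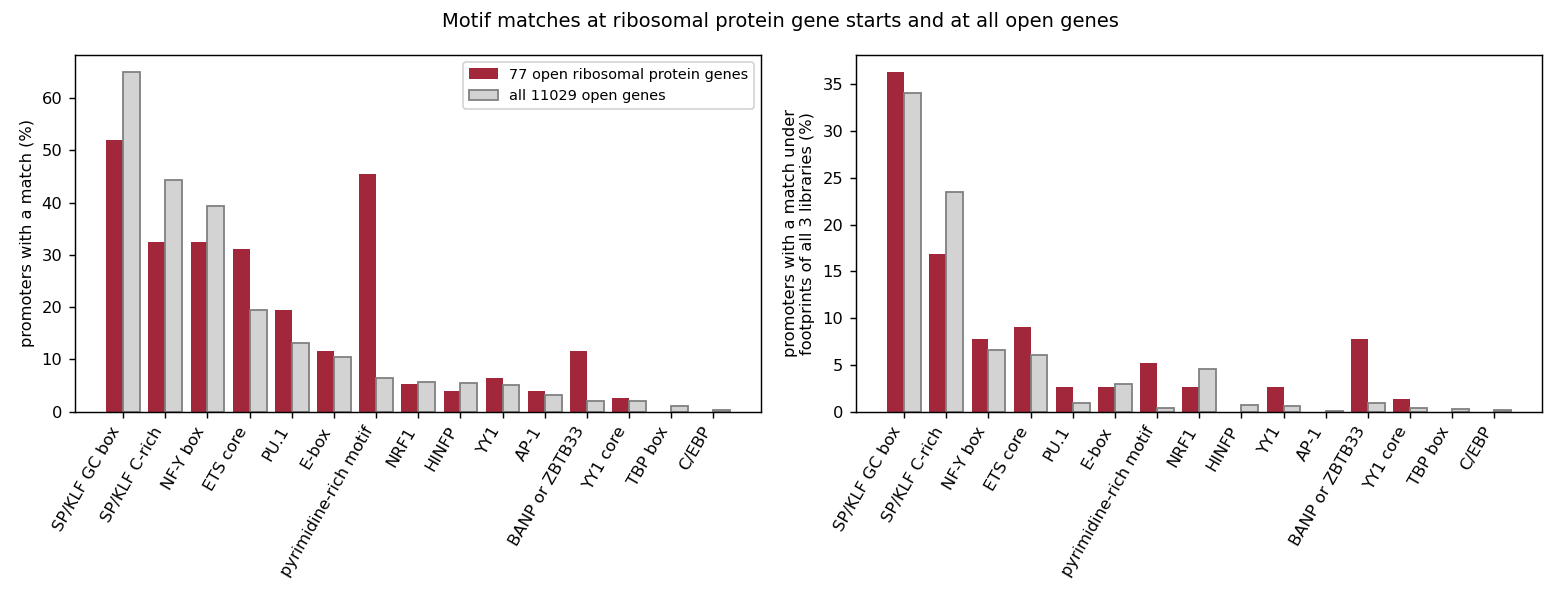
Share of promoters (y axes, in percent) with each motif (x axis) at the 77 open ribosomal protein genes and at all 11029 open genes; left, any match in the searched window, right, a match under footprints of all 3 libraries. The pyrimidine-rich motif (TCT) at 45.5% against 6.41% and the BANP or ZBTB33 element at 11.7% against 2.02% differ most in ratio, and the GC box is less frequent at the ribosomal protein genes.

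The genes share features of sequence and structure that their symbols did not select. The CpG observed over expected ratio within 500 bp of the main TSS had a median of 0.815 over the 77 open genes, against 0.744 over all open genes. Translation factors had 0.845, ribosome biogenesis genes 0.769 and proteasome genes 0.744, so a ratio this high was shared with the translation factors. The median length of the open genes was 3289 bp against 23695 bp. A snoRNA gene lay inside 29 of the 77 open genes (37.7%), beside 1.78% of all open genes, 25% of the translation factors and 12.5% of the biogenesis genes, with 56 snoRNA genes in all and the most, 5, in Rpl4. The hosts had a median percentile of 95.3 ± 0.715 and the open genes without a snoRNA 92.6 ± 1.07. Both the tallest genes (Rpl7a, with 3 snoRNA genes) and the lowest (Rpl23a, with 3, and Rpl6, with 1) were among the hosts. Over the 77 genes the Spearman correlation of mean percentile with the CpG ratio was 0.303, over genes of the same libraries.

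A neighbour with a protein-coding TSS on the other strand within 1 kb was found for 10 of the 77 open genes (13%), beside 16.9% of all open genes. Starts on either side were counted in both shares. The distance upstream was -461 bp for Trappc4 at Rps25 and -159 bp for Clhc1 at Rps27a. These starts thus lay downstream, and the pairs are not divergent. Rps28 and Ndufa7, a subunit of respiratory complex I, start 10 bp apart, Rpl9 and Lias 53 bp, Rpl15 and Nkiras1 69 bp, Rps18 and Vps52 135 bp, and Rpl7a and Med22 195 bp. The promoter peaks of Rps28 were 220, 200 and 200 bp wide with centres 11.5 to 21.5 bp from its start, so they cover both starts, and their height cannot be assigned to either gene. The tallest peaks of Rpl9, Rpl15 and Rps18 likewise covered both starts in every library, and the same limit holds for their heights.

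Around the promoters, distal peaks were somewhat more frequent than over all protein-coding genes. That background includes the 44.1% of genes with no promoter peak in any library. Values over open genes alone were not computed. Peaks outside every protein-coding promoter window and within 50 kb of the most upstream TSS numbered 4.03, 3.14 and 3.84 per gene in replicates 1, 2 and 4, a mean of 3.67 ± 0.468, against 2.69, 2.05 and 2.47 and a mean of 2.40 ± 0.326 over all protein-coding genes. At least 1 in every library was found for 67 of the 80 genes (83.8%), beside 60%. The genes also lay among more neighbours, with a median of 3 other protein-coding genes within 50 kb against 2, and a distal peak may belong to any of them. Translation factors had a mean of 3.52 ± 0.339 and proteasome genes 3.33 ± 0.643. Both were below the ribosomal protein genes in each library, with 3.725, 3.125 and 3.7 for the translation factors and 3.95, 2.67 and 3.38 for the proteasome genes. These SDs are between libraries and do not measure the spread between genes. The mitochondrial ribosomal protein genes had 2.91 ± 0.430 and the biogenesis genes 2.70 ± 0.468. Over the 77 open genes the Spearman correlation of mean percentile with distal peaks was 0.228.

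Rpl19 had the most distal peaks by the mean over libraries, 10.3, with 12, 8 and 11. Rpl13a had 10 in every library, more than Rpl19 in replicate 2. Rps16 had 10, 9 and 10, Rps18 had 8, 8 and 12, and Rpl3 had 11, 8 and 8. Rpl3l and Rps2 start 7.76 kb apart on chromosome 17, and the 3, 3 and 6 distal peaks counted for the closed Rpl3l were also counted for the open Rps2. No distal peak in any library was found for 6 genes (7.50%, beside 26.3% of all protein-coding genes). These were the closed Rpl10l and Rpl39l and the open Rpl27a, Rpl36, Rpl37 and Rps15a. Rpl27a, with promoter heights of 11.3, 9.30 and 14.4, and Rpl37, with 10.7, 9.23 and 13.2, were among the 10 tallest promoters, so tall promoter peaks occurred with no called distal peak nearby.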

How the data were processed

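DNase-seq of 3 monocyte libraries was used as deposited. The peak height is a signal, the density of cuts, computed by the authors on a scale that is not stated; per the labels the assembly is mm10 and files were made per library, not on pooled reads. The authors' FDR track (p-value kind) lists intervals under 0.05, and the deposited footprints carry 1 constant value, so only their positions were used. The name of the aligner, the peak caller or the footprint software is not given in the sources used here. Read depth is unknown, and no interval for counting error was computed.

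The longer of both peak lists of each library was used. Genes and starts came from GENCODE M21 on GRCm38.p6: 21938 protein-coding genes, of which 21851 have a protein-coding TSS, with 41438 TSSs. A promoter peak overlaps the 1000 bp before or after a protein-coding start of the gene, the tallest giving its height; a gene is called open when it has one in every library. The main TSS is that of the APPRIS principal transcript. A footprint counts by its midpoint inside a promoter peak. A motif counts as under a footprint when a footprint, extended by 5 bp on each side, holds the whole match. Values are the mean ± SD over 3 libraries, and a median per list is taken in each library first. The shorter peak list, the taller 50% of peaks, other windows and starts, other gene sets and each library left out were alternatives.

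Members and lists were chosen with earlier results of these data known. Genes were named by rule: those closed in a library, the 10 tallest and 8 lowest, the 6 with the most and all with no distal peaks, the 6 with the most footprints, the 3 most variable, the X-linked, those ending in l, and relatives outside the symbols; genes named beyond this for their role, their element or a shared window, Rps3a1 and the TCT motif were chosen after values had been seen. A few genes that met the rule are not reported here. Python 3.11.15, numpy 2.4.6, scipy 1.17.1, pysam 0.24.0 and matplotlib 3.10.9 were used, and the counting code was tested on simulated data.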

Additional observations from a re-analysis of the deposited data

How the results depend on the processing

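For the 5 main results (open genes, height, percentile, distal peaks and footprints), 40 of 47 alternatives stayed within the spread between libraries or within 1.5 times the count. Many of these outcomes were fixed in advance, so the tally does not measure robustness. Leaving out 1 of 3 libraries cannot shift their mean by as much as their SD. A count of 77 among 80 genes could hardly leave its range. The count of 77 open genes was the same with the shorter peak list and the taller 50% of peaks, where the share of all genes fell to 46.9% and 44.1%. The median percentile was 90.2 with the shorter list and 86.7 among the taller 50% of peaks, where all open genes gave 82.8 and 78.3; fewer peaks are ranked there. Distal peaks averaged 2.42 with the shorter list, 1.93 with the taller 50%, 1.62 within 25 kb and 6.60 within 100 kb, where all genes gave 1.59, 1.19, 1.21 and 4.70. Counting footprints within 250 bp of the TSS gave a median of 6. The ETS core was at 9.09% when required under footprints of every library. The TCT motif was at 5.19% under footprints and at 23.4% (2.70% of all open genes) from 20 bases before to 50 after the TSS, a window chosen after seeing the data. A window of 100 bp on either side was not run for the TATA and TCT motifs, whose windows are set by the start. No paired analysis was possible because there is 1 group. Depth is unknown, so a missing peak says only that none was called, and 3 libraries with 1 donor identifier limit every SD.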
